A study of Oncorhynchus mykiss with 14 samples.

Results

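The transcripts described here are 99 genes whose RNA level in eggs parted the clutches of 7 rainbow trout females into those with high and those with low survival of normally fertilized embryos, in both pools of eggs taken from each clutch. They were chosen from the values themselves. Counts per 1000000 counts assigned to genes (CPM) were computed in 14 libraries for the 64494 genes of the files, genes with a mean below 0.5 CPM were set aside, and a gene was kept when none of its 6 values from females F3, F4 and F6 overlapped any of its 8 values from females F1, F2, F7 and F8. Of 21000 genes tested in this way, 268 did not overlap (1.28%), of which 227 were higher with high control survival (1.08%) and 41 were lower (0.195%). The 100 with the largest absolute log2 ratio of group means (0.1 CPM added to each) were then taken, and 1 of them was left out by name, so that 80 higher and 19 lower genes remained. The non-overlap and the ratios are therefore a description of the choice and carry no test.

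Each clutch gave 1 gynogenetic and 1 control library. In the gynogenetic group, eggs had been activated with UV-irradiated sperm, which triggers development but adds no paternal genome. The labels name the trout as of the Rutki strain. By the study's methods this sperm was of grayling and a pressure shock belonged to gynogenesis, and eggs for RNA were taken directly after treatment, but whether the sequenced gynogenetic eggs had already received the shock is not given in the sources read. In the control group, eggs had been fertilized with rainbow trout sperm that was not irradiated, and no shock was given. The labels give the genotype of both groups as XX, Doubled Haploids, also for the controls, and they give the treatment and a replicate number but no female and no survival. The female of each library came from the study's own sample list, the high (F3, F4, F6) and low (F1, F2, F7, F8) control-survival groups came from the selection rule, and the survival of the embryos was not analysed here. High and low only order the clutches, and the study describes control survival as comparable between them. By the study, competence for gynogenesis was decreased in F3 and F6 and increased in F4 among the high females. Among the low females it was increased in F1, F7 and F8 and decreased in F2. The control-survival groups thus run largely opposite to competence, and the 2 groupings were not told apart here. A library held the RNA of a small pool of eggs, so the 2 libraries of a female are separate pools of 1 clutch, and only 3 and 4 clutches stand behind the groups. RNA content per egg and the amount of one transcript relative to the others cannot be told apart in such data.

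A fish egg is filled with messenger RNA during its growth in the ovary. The embryo's own genome stays largely silent through the first cleavages, so the proteins made in that period come from this maternal store, and the store differs between mothers. Salmonid fish also carry many duplicated genes from a genome duplication in their ancestry, and where copies are nearly identical the reads of one can be counted on the other, so the level of a single gene identifier is uncertain in that case. Of the 99 members, 7 could be given a gene symbol or description and 2 more only a coding status, all 9 through gene lists that the study itself had chosen on these samples, which are therefore not independent evidence of their direction. The other 90 are known here by identifier only.

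The libraries held between 45735498 and 64700077 counts assigned to genes with high control survival and between 34535902 and 67557305 with low control survival. Nearly all counts above 0 (99.66 to 99.77% per library) were even numbers, so the values came in steps of 2, as when both reads of a pair are counted; the cause was not tested. At 1 CPM a library therefore held only 17.3 to 33.8 such steps, which gives a counting error of 17.2 to 24.1%. Cyclin B1 (ccnb1), a maternally stored cell-cycle regulator, ranked 3 of all genes by mean CPM, with 1653 to 2719 CPM in high and 2110 to 2796 CPM in low control-survival libraries. It was the 1 gene matched of 16 egg markers sought, and no marker of follicle cells, blood or sperm could be matched to an identifier, so the presence of such cells was not tested. Names could be sought only in the gene lists that the study had chosen on these samples, so ccnb1 is not an independent marker. The correlation of gene-wise deviations between the 2 pools of a female was 0.601 to 0.761 over 21000 genes, and between pools of different females it reached at most 0.11.

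The members were mostly rare transcripts. Their mean level had a median of 3.17 CPM (range 0.514 to 93.4), against 8.28 CPM over all genes tested, with 63 of them under 5 CPM and 13 at 20 CPM or more. The mean was under 0.5 CPM in the low libraries for 14 members and in the high libraries for 4, which passed the minimum through the other group. The median log2 ratio of the 80 higher members was 1.62 (1.31 to 4.56), and that of the 19 lower members was -2.24 (-1.32 to -6.15). An absolute log2 ratio of 2 or more was reached by 14 higher and 11 lower members. The sum over the 80 higher members was 925 to 1319 CPM in the high and 250 to 355 CPM in the low control-survival libraries. The sum over the 19 lower members was 66.0 to 133 CPM in the high and 317 to 374 CPM in the low control-survival libraries. The heat map of members by library shows these 2 blocks.

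**Figure D1:**
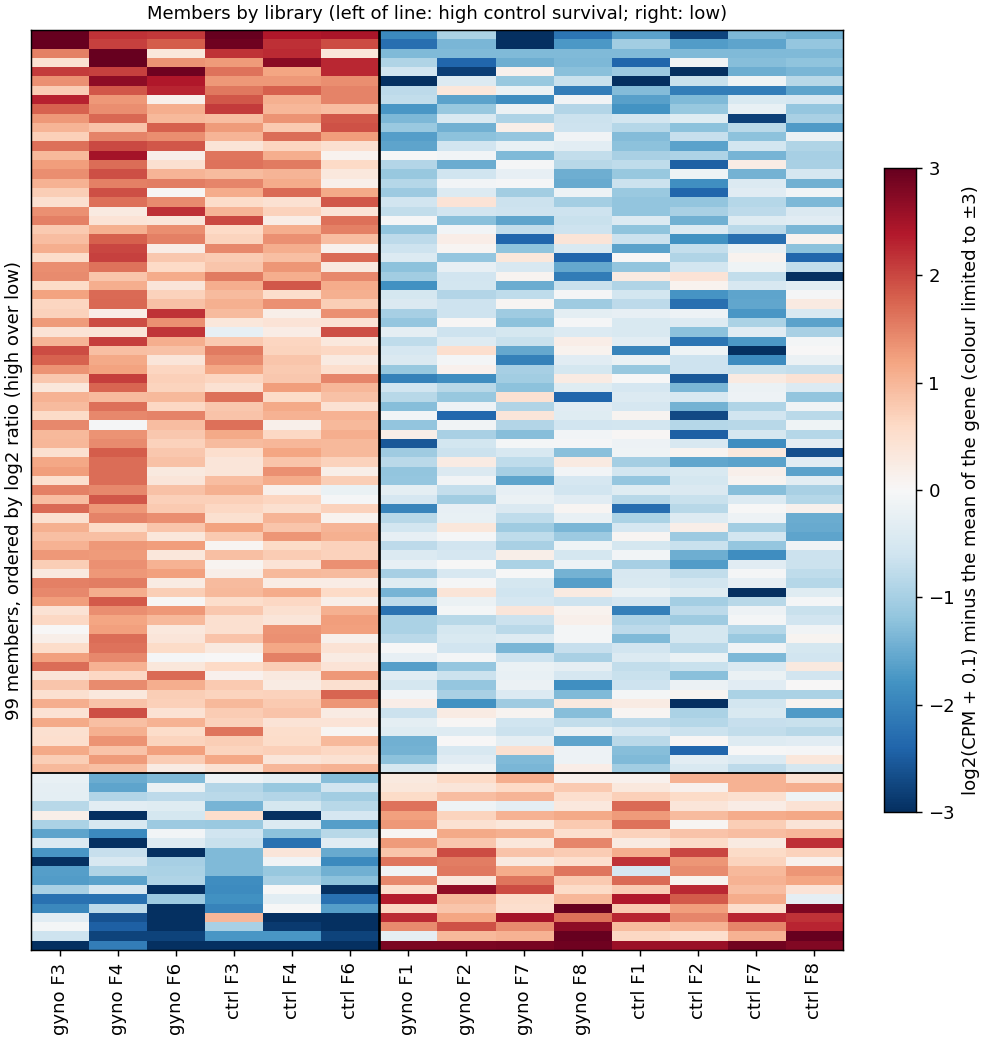
Level of the 99 members (rows, ordered by log2 ratio) in the 14 libraries (columns), as log2(CPM + 0.1) minus the mean of the gene, with the colour limited to ±3. The 6 high control-survival libraries stand left of the vertical line and the 8 low ones right of it, and the horizontal line parts the 80 higher from the 19 lower members.

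The distance between the groups was small for many members. The gap between the nearest values of the groups, on the log2 scale with 0.1 CPM added, had a median of 0.27, was under 0.2 in 36 members and reached 1 or more in 10. The last 3 genes inside the limit of 100, ENSOMYG00000045836, ENSOMYG00000021494 and ENSOMYG00000017971, had log2 ratios of 1.32, 1.31 and 1.31. The first 3 outside, ENSOMYG00000003390, ENSOMYG00000015894 and ENSOMYG00000037714, had log2 ratios of 1.31, 1.31 and 1.30, so the limit does not mark a step in the values. A ratio of that size was common without a clean separation: of 958 genes with an absolute log2 ratio at least as large as that of the last member, 858 overlapped between the groups.

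The share of higher genes in the set depended on how the counts were scaled. With plain CPM the log2 ratio of high over low control survival had a median of 0.14 over all 21000 genes, so a higher level was favoured in the high libraries. This median was 0.01 with TMM factors (trimmed mean of M values, which ranged from 0.961 to 1.105 in the high and from 0.917 to 1.002 in the low libraries) and -0.02 with DESeq2 size factors. Against the 80 higher and 19 lower members under plain CPM (80.8% higher), the same rule took 67 and 32 with TMM (67.7% higher) and 62 and 37 with DESeq2 factors (62.6% higher). Among all genes without overlap, the counts were 227 higher and 41 lower with CPM (84.7% higher), 129 and 75 with TMM (63.2%), and 112 and 98 with DESeq2 factors (53.3%). Each of the 99 members kept the sign of its ratio under both scalings, and the smallest absolute log2 ratio was 1.197 with TMM and 1.16 with DESeq2 factors. The separation was kept under all 3 scalings by 78 members, which were 59 of the 80 higher and all 19 lower ones. Higher members named in this report that overlapped under both TMM and DESeq2 factors were ENSOMYG00000022208, ENSOMYG00000019891, ENSOMYG00000036307, ENSOMYG00000017971 and ENSOMYG00000024221 (atl1).

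**Figure D2:**
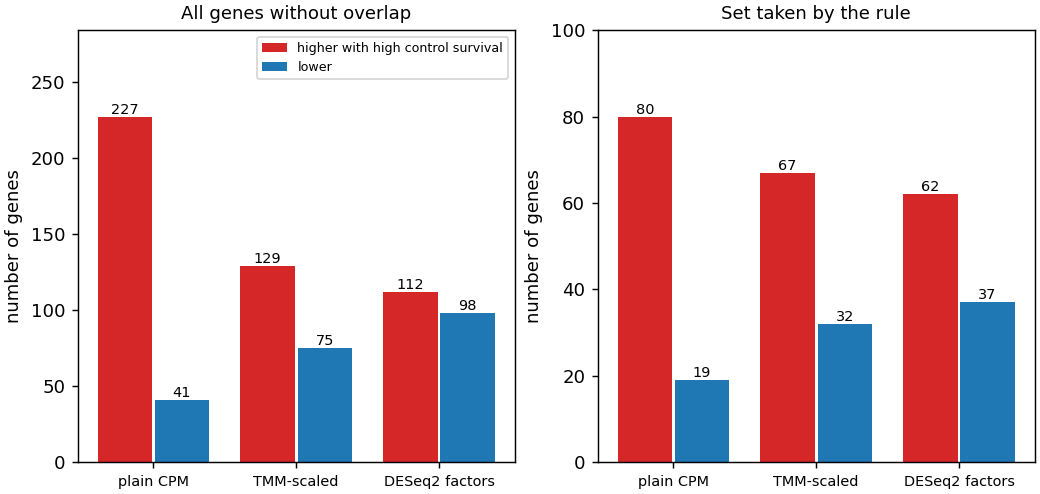
Number of genes higher (red) and lower (blue) with high control survival under plain CPM, TMM-scaled CPM and DESeq2 size factors. Left, all genes without overlap between the 6 high and 8 low libraries; right, the set the rule takes. The higher genes outnumber the lower ones under each scaling, by 227 to 41 with plain CPM and by 112 to 98 with DESeq2 factors among all genes without overlap.

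The widest separation belonged to ENSOMYG00000039177, a lower member annotated as protein coding and without a name. Its level in the gynogenetic pools of F3, F4 and F6 was 0.154, 1.02 and 0.124 CPM, and in their control pools 0.321, 0.491 and 0.0437 CPM. In F1, F2, F7 and F8 it was 33.2, 33.6, 33.9 and 35.9 CPM in the gynogenetic pools and 27.8, 28.2, 35.1 and 32.3 CPM in the control pools. All 8 low control-survival libraries thus held nearly the same amount, and the mean was 90.5 times higher in them than in the high ones (143 times without the gynogenetic pool of F4). The mean of ENSOMYG00000039177 in the high libraries was 0.359 CPM, from 2 to 48 counts each. It therefore passed the minimum of 0.5 CPM only through the low group, and the size of the ratio rests on few counts. ENSOMYG00000028393 had the opposite pattern at a much lower level, with 0.617, 4.04 and 0.216 CPM in the gynogenetic and 1.03, 1.09 and 0.219 CPM in the control pools of F3, F4 and F6. It had no count in any of the 8 low control-survival libraries. With 366 counts in the high libraries, and 6 counts (3 steps of 2) taken as the floor over the whole low group, it was at least 79.6-fold higher with high control survival, where the bound covers counting error only. The gynogenetic pool of F4 held 190 of the 366 counts, and without it the bound was 44.8-fold. With a mean of 1.20 CPM in the high and 0 in the low libraries, the gene passed the minimum of 0.5 CPM only through the high group. Without that pool of F4 its mean fell below this minimum, so its place in the set rests on 1 library. Both genes were highest in F4 among the high females in either pool.

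ENSOMYG00000037193 had the largest ratio of the higher members, and ENSOMYG00000069972 had a like pattern. ENSOMYG00000037193 had 48.4, 17 and 16.3 CPM in the gynogenetic and 33.2, 19.7 and 20.6 CPM in the control pools of F3, F4 and F6, against 0.178 to 1.88 CPM in the low control-survival libraries. ENSOMYG00000069972 had 66.5, 24.1 and 20.5 CPM in the gynogenetic and 44.1, 26.9 and 22.8 CPM in the control pools of F3, F4 and F6, against 0.385 to 2.77 CPM in the low control-survival libraries. F3 was highest for both genes in both pools. In the 6 high libraries the counts of ENSOMYG00000037193 were 0.704 to 0.902 times those of ENSOMYG00000069972, and the deviations of the 2 genes from their group means correlated at 0.866 (14 libraries, a description). Their positions and sequences were not analysed here, so shared reads were not tested.

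The named members are considered next by what their products do, with the values of each library shown in the plot of annotated members. The first pair acts on protein turnover and chromatin. The trim8b gene (ENSOMYG00000043425) codes for a tripartite motif protein, a family of ubiquitin ligases. It had 0.617, 1.45 and 1.98 CPM in the gynogenetic and 1.18, 1.37 and 1.09 CPM in the control pools of F3, F4 and F6. Among the low females F1, F2, F7 and F8 it had 0.145, 0.436, 0.266 and 0 CPM in the gynogenetic and 0.0712, 0, 0 and 0.0418 CPM in the control pools. The groups did not overlap, but 3 low libraries were listed at 0 and the levels are close to the counting limit. With a mean of 0.120 CPM in the low libraries, trim8b passed the minimum of 0.5 CPM only through the high group.

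The mbd2 gene (ENSOMYG00000008044) codes for a protein that binds methylated CpG sites in DNA and recruits repressive chromatin complexes. It had 2.20, 2.81 and 2.57 CPM in the gynogenetic and 0.856, 1.05 and 0.918 CPM in the control pools of F3, F4 and F6. In F1, F2, F7 and F8 it had 0.145, 0.392, 0.533 and 0.489 CPM in the gynogenetic and 0.213, 0.142, 0.405 and 0.293 CPM in the control pools. The mean of the low libraries was 0.327 CPM, from 8 to 36 counts each, so mbd2 passed the minimum of 0.5 CPM only through the high group. In the high group every gynogenetic pool stood above every control pool, but the difference between gynogenetic and control eggs over all 14 libraries, a log2 fold change of 1.17 ± 0.64 (SE), had an adjusted p of 0.868 by edgeR's quasi-likelihood test. With the female as a block it was 0.93 ± 0.39 (SE), with an edgeR adjusted p of 0.205.

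The genes ssr1 and atl1 both serve the endoplasmic reticulum. The ssr1 gene (ENSOMYG00000031149) codes for the alpha subunit of the signal sequence receptor, part of the complex through which secreted and membrane proteins enter the reticulum. It had 12.1, 27.7 and 11 CPM in the gynogenetic and 16.2, 18.5 and 14.3 CPM in the control pools of F3, F4 and F6, against 2.78 to 8.98 CPM in the low control-survival libraries. The atl1 gene (ENSOMYG00000024221) codes for atlastin, a GTPase that fuses tubules of the reticulum. It had 22.4, 44.0 and 41.2 CPM in the gynogenetic and 29.2, 23.4 and 34.8 CPM in the control pools of F3, F4 and F6. Against this, F1, F2, F7 and F8 had 3.52, 15.8, 21.3 and 17.9 CPM in the gynogenetic and 3.91, 9.56, 14.8 and 10.4 CPM in the control pools. The highest low library (gynogenetic, F7) lay just below the lowest high library (gynogenetic, F3), and the 2 groups overlapped under TMM and under DESeq2 factors.

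Signalling is represented by 2 named members of opposite direction. A gene described as G(i) subunit alpha-1-like (ENSOMYG00000039638), from the family of G protein subunits that inhibit adenylyl cyclase, had 49.6, 42.1 and 46.5 CPM in the gynogenetic and 36.2, 29.9 and 29.8 CPM in the control pools of F3, F4 and F6. In F1, F2, F7 and F8 it had 18.4, 23.2, 14.9 and 13.4 CPM in the gynogenetic and 13, 12.4, 13.8 and 14.1 CPM in the control pools. PAK3 (ENSOMYG00000036359), a p21-activated kinase that acts downstream of the small GTPases Rac and Cdc42, was the 1 lower member with a name. It had 0.617, 0.468 and 1.92 CPM in the gynogenetic and 1.32, 0.807 and 1.09 CPM in the control pools of F3, F4 and F6. In F1, F2, F7 and F8 it had 2.14, 4.62, 4.41 and 2.93 CPM in the gynogenetic and 3.34, 3.75, 3.94 and 4.18 CPM in the control pools. The nearest values of the groups were those of the gynogenetic pools of F6 and F1.

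The remaining annotated members have no role that can be given here. The gene unm_sa821 (ENSOMYG00000003619) had 13.8, 6.90 and 3.03 CPM in the gynogenetic and 10.1, 5.82 and 7.87 CPM in the control pools of F3, F4 and F6, against 0.681 to 2.51 CPM in the low control-survival libraries. ENSOMYG00000014779, protein coding and without a name, had 2.47, 6.30 and 5.16 CPM in the gynogenetic and 2.35, 2.35 and 2.54 CPM in the control pools of F3, F4 and F6, against 0 to 0.811 CPM in the low control-survival libraries. Its mean in the low libraries was 0.417 CPM, so it passed the minimum of 0.5 CPM only through the high group. Each of the 9 annotated members other than atl1 remained without overlap under the other 2 scalings.

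**Figure D3:**
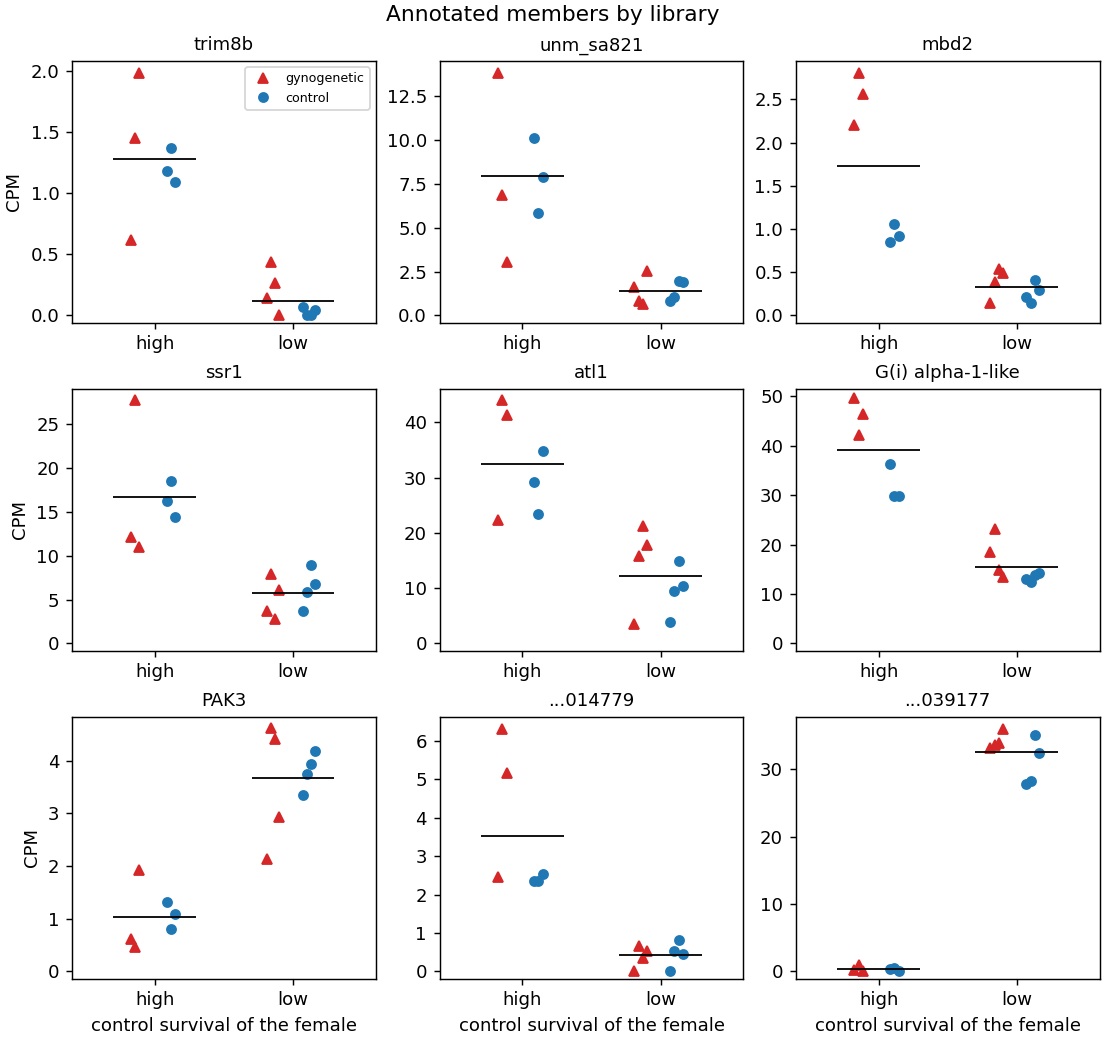
CPM of the 9 annotated members in each library, in the high (left) and low (right) control-survival groups, with triangles for gynogenetic pools, circles for control pools and a line at the mean of the group. The groups are separate in every panel, and ENSOMYG00000039177 (last panel) lies at 27.8 to 35.9 CPM in the low group and at or below 1.02 CPM in the high group.

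The most abundant members had no name. ENSOMYG00000022208 had 115, 260 and 69.9 CPM in the gynogenetic and 148, 222 and 150 CPM in the control pools of F3, F4 and F6, against 13 to 64.7 CPM in the low control-survival libraries. Its groups overlapped under TMM and under DESeq2 factors. ENSOMYG00000040038 had 93.8, 66.3 and 79.7 CPM in the gynogenetic and 103, 79.5 and 90.6 CPM in the control pools of F3, F4 and F6. The low females F1, F2, F7 and F8 had 30.3, 56.6, 21.2 and 17.1 CPM in the gynogenetic and 31.6, 50.4, 21.4 and 15.7 CPM in the control pools, so that F2 stood nearest to the high females in both pools. Among the lower members, ENSOMYG00000024194 had 43.6, 29.1 and 31.0 CPM in the gynogenetic and 30.3, 28.7 and 25.7 CPM in the control pools of F3, F4 and F6, against 48.9 to 107 CPM in the low control-survival libraries.

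The separation stood in each pool on its own for all 99 members, since the rule required it. Among all 21000 genes, 1909 (9.09%) did not overlap in the gynogenetic and 1829 (8.71%) in the control libraries, and 524 did so in both pools in the same direction against 2 in opposite directions. The higher members had a median log2 ratio of 1.74 (1.09 to 4.74) in gynogenetic and 1.57 (0.79 to 4.39) in control eggs. The lower members had a median of -2.32 (-6.01 to -1.09) in gynogenetic and -2.19 (-6.33 to -1.21) in control eggs. Since the rule used both pools, and both come from the same females, the likeness of these values is not a result.

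**Figure D4:**
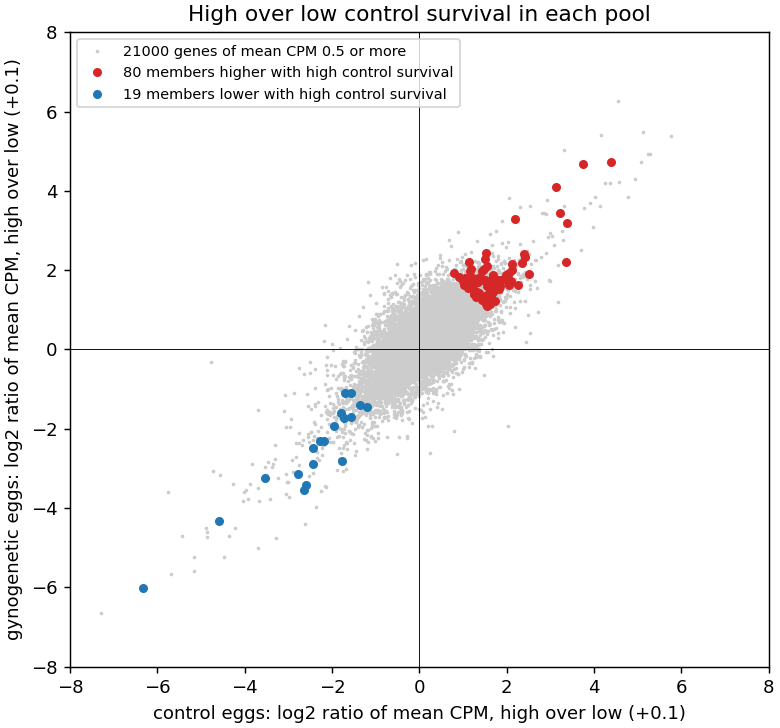
Log2 ratio of mean CPM, high over low control survival with 0.1 CPM added, in gynogenetic (y axis) and control eggs (x axis) for the 21000 genes tested (grey), the 80 higher (red) and the 19 lower members (blue). The ratios of every member have the same sign in both pools. The grey points include 858 genes that overlapped between the groups although their absolute log2 ratio over all 14 libraries, not plotted here, was at least that of the last member.

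Whether the females of one control-survival group differed among themselves is a question the rule used in part, since non-overlap limits the spread within a group. By edgeR's quasi-likelihood test, with Benjamini-Hochberg adjustment over all 21000 genes, the females differed within their groups in 10220 genes (48.7%). Among the members, 38 of 99 passed this test (38.4%), but the 2 directions differed. The share was 23 of the 80 higher members (28.75%), below that of all genes, and 15 of the 19 lower members (78.9%), above it. The lower members were also the more abundant, with a median mean level of 7.39 CPM against 2.79 CPM for the higher ones. Whether level bears on the difference between these shares was not tested. The test sets differences between clutches against differences between the 2 pools of a clutch.

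The lowest p among the members belonged to ENSOMYG00000043896 (edgeR adjusted p = 5.63e-07), which with ENSOMYG00000024194 made up the 2 most abundant lower members. Its level was 2.68 and 1.54 CPM in the gynogenetic and control pools of F4, 25.6 and 26.0 CPM in those of F6 and 41.6 and 53.9 CPM in those of F3, against 59.3 to 90.3 CPM in the low control-survival libraries. The 3 high females thus stood at 3 separate levels, in the same order in both pools. ENSOMYG00000040038, described above, followed among the higher members (edgeR adjusted p = 1.39e-04), with F2 and F8 as the highest and lowest of the low females. ENSOMYG00000073690 (edgeR adjusted p = 4.04e-05) was lower with high control survival and highest in F8, at 22.6 and 17.2 CPM in its gynogenetic and control pools, against 6.76 to 13.3 CPM in the other low libraries. In the high libraries it had 0.216 to 3.32 CPM.

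In 2 further members the call rested on 1 female. ENSOMYG00000073402 had 13.8 and 12.7 CPM in the gynogenetic and control pools of F8, 0.472 to 1.33 CPM in the other low control-survival libraries, and 0 to 0.347 CPM in the high ones. With a mean of 0.0932 CPM in the high libraries, it passed the minimum of 0.5 CPM only through the low group. Its edgeR adjusted p among females was 1.89e-04, and 0.0853 without F8. ENSOMYG00000022312 had 2.66 and 6.88 CPM in the gynogenetic and control pools of F3 and 0 to 0.468 CPM in those of F4 and F6, against 7.89 to 19.6 CPM in the low control-survival libraries. Its edgeR adjusted p was 1.85e-04, and 0.227 without F3.

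Some higher members moved together within the groups. ENSOMYG00000019891 had 31.7 and 27.2 CPM and ENSOMYG00000025836 had 38 and 28.9 CPM in the gynogenetic and control pools of F6. In F3 and F4 the first had 5.95 to 9.33 CPM and the second 12.7 to 18.1 CPM, against 2.94 to 5.80 CPM and 4.82 to 10.2 CPM in the low control-survival libraries. The groups of the first overlapped under TMM and under DESeq2 factors, and those of the second did not. For these genes, picked after their values were seen, the deviations from the group means correlated at 0.926 over 14 libraries. Such likeness was rare: over 4851 pairs of members the median correlation was 0.05, and 16 pairs were above 0.8.

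Single females and libraries stood out in how often they held the extreme value. Of the 80 higher members, 39 (48.8%) were highest in the gynogenetic pool of F4 among the 6 high libraries, which held the highest value of 19.8% of all genes. The control pool of F2 was lowest of the 8 low libraries in 21 of the 80 (26.2%), against 13.8% of all genes. Among the high females, both pools of F4 lay above those of F3 and F6 in 21 of the 99 members (14.3% of all genes) and below them in 8 (17.6%). Both pools of F6 lay above the others in 8 members (15.6% of all genes) and below in 18 (14.6%), and those of F3 above in 14 (11.3%) and below in 10 (10.5%). Among the low females, both pools of F8 lay above the others in 13 members (14.8% of all genes) and below in 8 (11.2%). The counts were 6 above (7.38%) and 7 below (9.85%) for F1, 7 above (7.03%) and 7 below (9.26%) for F2, and 7 above (7.88%) and 6 below (6.18%) for F7. F4 above and F6 below were the counts farthest over the share in all genes, and F4 below and F6 above the farthest under it. These shares are descriptions of members that the rule had chosen.

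The rule did not compare gynogenetic with control eggs, but requiring no overlap over all 14 libraries works against genes with a large treatment difference. Of all genes, 524 parted the groups in both pools in the same direction, and only 268 did so over all 14 libraries. Low counts of members in this comparison, with or without the female as a block, are therefore partly set by the rule. Over all 21000 genes, edgeR called 61 at an adjusted p below 0.05 (0.29%), all 61 lower in gynogenetic eggs, and 1397 had an unadjusted p below 0.05. Among the 99 members none passed (0 of 99), and 0 had an unadjusted p below 0.05. DESeq2 called 266 genes in all and none of the members. Neither fit held the control-survival group or the female, so the step that chose the members counted as spread. For ENSOMYG00000039177 the SE was 1.24 in the edgeR fit and 0.19 with the female as a block. The 0 of 99 is therefore not a result about the members. Of the 80 higher members, 55 had a positive log2 fold change in gynogenetic over control eggs, with a median of 0.18, and of the 19 lower members 7 did, with a median of -0.02. The median over all genes was 0.05. The share of all genes with a positive value in this fit was not computed, so whether the members lean more to one side than all genes was not tested.

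The 2 pools of a clutch shared their female, and with the female as a block 1134 genes were called (5.4%), of which 278 were higher and 856 lower in gynogenetic eggs. A single member passed this paired test, and 10 of 99 members had an unadjusted p below 0.05 (10.1%), against 4016 of all 21000 genes (19.1%). The member that passed was ENSOMYG00000036625, a gene without a name, with a log2 fold change of 0.73 ± 0.20 (SE) and an edgeR adjusted p of 0.0425. It had 14.9, 14.3, 26.4, 2.25, 0.392, 3.70 and 1.36 CPM in the gynogenetic pools of F3, F4, F6, F1, F2, F7 and F8, against 10.8, 7.79, 16.7, 1.53, 0.177, 1.16 and 1.26 CPM in the control pools. The gynogenetic pool was higher in all 7 females. Leaving out each female in turn, it was called only without F8. ENSOMYG00000036307, next in p, had a paired log2 fold change of 0.76 ± 0.23 (SE) and an edgeR adjusted p of 0.0682. The G(i) subunit alpha-1-like gene had one of 0.42 ± 0.14 (SE) and an edgeR adjusted p of 0.0985, and atl1 one of 0.37 ± 0.17 (SE) and an adjusted p of 0.248. ENSOMYG00000046096, next in p after the G(i) gene, went the other way. It had a paired log2 fold change of -0.83 ± 0.30 (SE) and an edgeR adjusted p of 0.129.

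Within single females, the median difference of gynogenetic minus control log2(CPM + 0.1) over the 80 higher members was 0.41 in F4, where 65 of the 80 were higher in the gynogenetic pool, and 0.37 in F2, where 59 were. Of all genes, 57.1% were higher in the gynogenetic pool in F4 and 53.9% in F2. These are plain CPM values, and the TMM factors of the gynogenetic and control pools were 1.08 and 0.961 in F4 and 0.976 and 0.920 in F2. In the other 5 females the median lay between -0.03 and 0.13. For the 19 lower members it was -0.44 in F4, 0.32 in F6, 0.23 in F2 and between -0.08 and 0.12 in the other 4 females. Over all genes the median was 0.11 in F4, 0.12 in F6 and 0.06 in F2. With 1 library per female and treatment, these differences have no replicate check.

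Whether the step between high and low control survival differed in size between gynogenetic and control eggs was asked with the interaction of treatment and control-survival group. edgeR called none of 21000 genes (0%), with 85 at an unadjusted p below 0.05, and none of the 99 members, of which 0 had an unadjusted p below 0.05. DESeq2 called 0 genes too, with 124 at an unadjusted p below 0.05. Neither of these fits held the female, so differences between clutches of a group counted as spread. Their 0 of 99 is therefore not a result about the members. With the female as a block 0 genes were called and 725 had an unadjusted p below 0.05, among them the member ENSOMYG00000017238, with a log2 difference of -1.45 and an edgeR adjusted p of 0.998. A difference of steps that misses the threshold in 3 against 4 females does not show that the steps were alike. The rule also required each member to part the groups in the same direction in both pools, which limits how its steps can differ.

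Lists of maternal and cellular genes were compared with the members by counts. Among the genes matched to an identifier, 0 of 6 microtubule and spindle genes, 0 of 3 ubiquitin ligase genes and 0 of 6 mitochondrial genes were without overlap between the control-survival groups, beside 1.28% of all genes tested, so counts of 0 in lists this short say nothing about the lists. The ubiquitin ligase list does not hold trim8b. The median log2 ratios of the matched genes were 0.53, 0.04 and 0.25, beside 0.14 over all genes tested. Names came only from gene lists that the study had chosen on these samples by correlation with survival. The matched genes are therefore no neutral sample of these pathways, and their ratios are not a result about the lists. Few genes of each list could be matched, so most genes of these pathways were not analysed here.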

How the data were processed

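The authors isolated RNA from pools of eggs of each clutch, sequenced poly(A) RNA as read pairs, checked reads with FastQC 0.11.9, aligned them with STAR 2.7.5c to OmykA_1.1 and counted genes with HTSeq 1.99.2, as given in the submitters' processing notes and the paper. The deposited files hold raw counts per gene, not normalized, used here as deposited. Whether HTSeq used strand is not stated in the sources read, so overlapping antisense genes are uncertain. The 5 summary lines of each file, which name no gene, held 64.57 to 67.6% of the sum of its lines and were left out. The paper's own normalization used DESeq2, for which the version 3.16 is given.

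CPM was the count divided by the library's sum over genes. The members, lists and tests were chosen with earlier results of these data known. Named members are those with an annotation, up to 5 of lowest p among those called in each tested comparison, the genes at the limit of the rule and the 2 most abundant members in each direction. Others named were chosen after their values were seen. Grouping of neighbouring members was not done, since only 2 members could be placed on the genome and 97 could not.

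edgeR 4.0.16 (TMM, quasi-likelihood test, R 4.3.3) tested gynogenetic against control eggs, the interaction with control-survival group, and females within groups, on genes with a mean of 0.5 CPM or more, with Benjamini-Hochberg adjustment and a threshold of 0.05. DESeq2 1.42.0 was an alternative. The procedure was run on simulated data that held no differences between clutches like those seen here. That run does not show how the unpaired tests behave on these data. Replicate numbers pair the libraries because the same number is the same female, and the deviations of the 2 pools of a female correlated at 0.601 to 0.761, so values with the female as a block are given where they change a call. The unpaired fits treat the 2 pools of a clutch as separate libraries, and their p-values set effects against the spread between libraries. The fits with the female as a block and the test among females use the spread left after the level of each female is removed. Counting errors cover counting only. Alternatives changed scaling, filter, tool, pairing, females and libraries, and halved counts were added after seeing the data.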

Additional observations from a re-analysis of the deposited data

Results flagged for a closer look

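The high and low control-survival libraries of 22 of the named members, not of all, were screened as 44 groups. In 3 groups, 1 library had a gap to its nearest neighbour that was large for the range of the group. The threshold gives about 1 in 20 for independent, normally distributed values. These libraries are 2 pools per female and the genes were chosen by the rule, so that rate does not hold here. ENSOMYG00000028393 had 4.04 CPM in the gynogenetic pool of F4, and the next of the high libraries had 1.09 CPM. ENSOMYG00000073402 had 0.347 CPM in the gynogenetic pool of F3, and the next had 0.107 CPM, which are only 18 and 6 counts. ENSOMYG00000024194 had 43.6 CPM in the gynogenetic pool of F3, and the next had 31.0 CPM.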

How the results depend on the processing

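The number of genes without overlap (268) was 1917 in gynogenetic libraries alone and 1805 in control libraries alone, with the minimum of 0.5 applied to the mean CPM of that pool (1909 and 1829 among the 21000 genes of the 14 libraries), where the rule took 31 and 32 of the 99 members. Leaving out both libraries of 1 female gave 396 to 1103 genes and kept 22 to 59 members, with 1103 and 22 without F6, 619 and 37 without F2, 666 and 41 without F3, 630 and 33 without F4, 495 and 50 without F7, 565 and 38 without F8, and 396 and 59 without F1. Leaving out 1 library gave 289 to 429 genes and kept 58 to 91 members (429 genes without the control pool of F6, 404 without that of F4, and 420 with 58 members without the gynogenetic pool of F2). Fewer libraries must meet the rule in each case, which by itself lets more genes pass.

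For gynogenetic against control eggs (61 genes, 0 members), DESeq2 called 266 genes, the paired fit 1134 genes and 1 member, and halved counts in the paired fit 1225 genes and 1 member. Without 1 female the unpaired count was 14 to 62 (24, 14, 15, 18 and 20 without F1, F2, F3, F6 and F7). Without 1 female the paired count was 638 to 1017 (825, 1017, 638, 809, 806, 934 and 932 without F1, F2, F3, F4, F6, F7 and F8), with 0 members except 1 without F8. The block changed no other call. Log2 ratios were recomputed for 22 of the named members, not for all of them. Of these 572 values, 0 reversed and 15 moved by more than the spread within a group. Of 60 recomputed adjusted p-values among females, 2 lost the call, both given in the report. Depth limits the members of low level most.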
